A study of Mus musculus with 4 samples.

Results

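The genes of the elastic fiber were followed in whole lungs of mouse embryos: elastin (Eln), the fibrillins Fbn1 and Fbn2, the fibulins Fbln1 and Fbln5, the microfibril-associated genes Mfap4 and Mfap5, the crosslinking enzymes Lox and Loxl1, and Emilin1. These 10 genes were chosen by symbol, and all of them were found among the 22556 genes of the deposited table. RNA sequencing had been performed on lungs at embryonic day 16.5 (E16.5) from 2 genotypes with 2 libraries each. Control embryos carried the Shh-Cre driver with one floxed and one intact Stk11 allele (Shh-Cre; Stk11F/+), whereas in Shh-Stk11 embryos, which also had Shh-Cre, each Stk11 allele was floxed (Shh-Cre; Stk11F/F). For both groups the labels named the strain C57BL/6, but mixed backgrounds were stated in the methods. Shh-Cre recombines in endoderm, from which the airway and alveolar epithelium arises, and not in lung mesenchyme.

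The elastic fiber is the extensible part of the extracellular matrix. Fibroblasts, myofibroblasts and smooth muscle cells secrete tropoelastin, which is laid onto a scaffold of fibrillin microfibrils with the help of fibulins, and lysyl oxidases join the molecules through their lysines. In the lung such fibers lie in the walls of vessels and airways and later at the tips of the alveolar septa. Most of the genes described here are therefore known as genes of cells in which Stk11 was not deleted, and a whole-lung library reads those cells together with the epithelium.

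The values are FPKM, fragments per kilobase of transcript at a common sequencing depth, and they were compared after taking log2(FPKM + 0.1). From the steps between the lowest values, the depth was estimated at 30900000 to 38200000 reads per library. The deleted gene was at 44.0 and 45.5 FPKM in Control and at 29.5 and 26.0 FPKM in Shh-Stk11 lungs (-0.69 on the log2 scale, SE 0.13, limma adjusted p 0.0499), a call kept in 3 of 17 alternatives, over which the difference lay between -0.78 and -0.53. Shh-Stk11 2 was the only male library by the X-linked Xist (0.239 FPKM, against at least 65.1 FPKM in the other libraries) and the Y-linked Ddx3y. Of the 13770 genes tested, 2.27% passed an adjusted p of 0.05, 0.98% higher and 1.29% lower in Shh-Stk11 lungs.

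The question put to the data was whether the elastic fiber program of the lung mesenchyme differed when the neighboring epithelium lacked Stk11. None of the 10 genes passed the threshold (limma, Benjamini-Hochberg adjustment over all genes tested), and 2 of them, Eln and Fbln1, had an unadjusted p under 0.05, both lower in Shh-Stk11 lungs. Over all genes, 15.2% had an unadjusted p under 0.05, with 7.18% lower and 8.04% higher. Which of the 10 genes had such a p changed over the alternatives. The replicate number as a block added Fbn2 and Mfap4. Removal of the trend with length and GC added Fbn1, Mfap5 and Lox. Fbln1 was lost with the same FPKM sum and Eln with the replicate numbers crossed, and Mfap5 was gained in both. In 6 of the 10 genes both Shh-Stk11 libraries lay below both Control libraries (Eln, Fbln1, Mfap4, Lox, Loxl1 and Emilin1), in 1 they lay above (Mfap5), and in 3 the groups overlapped (Fbn1, Fbn2 and Fbln5). Among all genes tested the groups did not overlap in 46.8%, with 27.6% lower and 19.2% higher. The 10 genes were chosen with earlier results of these data known, so setting them beside these shares is not a test. The median log2 fold change of the 10 genes was -0.17, beside -0.05 for all genes tested. With all libraries set to the same FPKM sum these medians were -0.0084 and 0.11, and 5 of the 10 genes were then above 0 in place of 4. In whole-organ libraries, fewer cells of a type and less RNA per cell cannot be told apart.

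**Figure D1:**
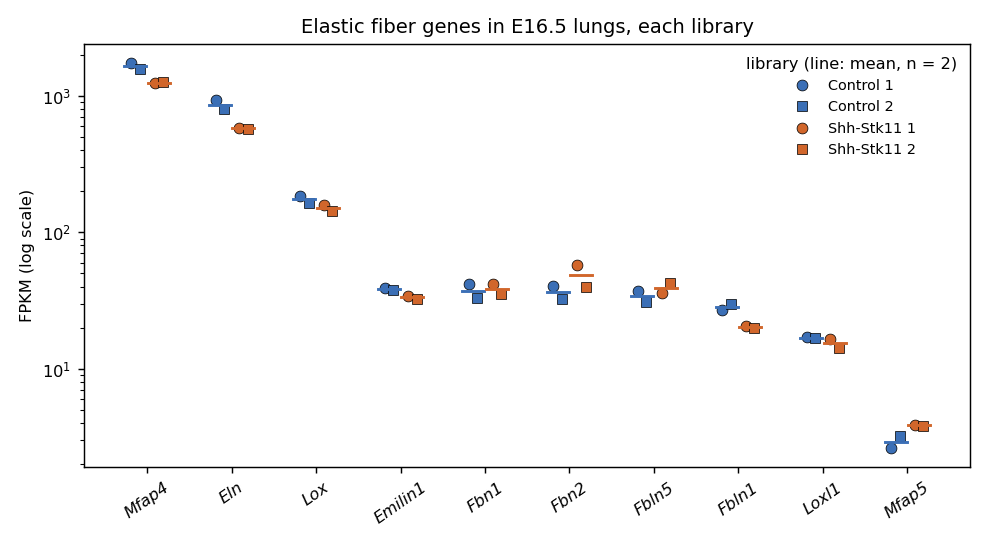
FPKM (log scale) of the 10 elastic fiber genes in each of the 4 libraries, in the order of their Control means, with Control in blue, Shh-Stk11 in orange and a line at each mean (n = 2). Mfap4, Eln and Lox stand above the other genes in every library, and for Eln, Mfap4 and Fbln1 both orange points lie below both blue points.

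Levels were compared between genes on the FPKM scale, which is per length. Mfap4, a microfibril-associated glycoprotein, was the most abundant of the 10 at 1652 ± 115 FPKM in Control lungs (SD, n = 2), and ranked between 41 and 55 among all genes in the 4 libraries. Eln followed at 863 ± 94.6 FPKM and Lox at 174 ± 15.2 FPKM. Then came a group of 4 genes, Emilin1, Fbn1, Fbn2 and Fbln5, with Control means between 34.1 and 38.3 FPKM, in which each gene overlapped the next in the order. Fbln1 (28.3 ± 1.97 FPKM), Loxl1 (16.8 ± 0.166 FPKM) and Mfap5 (2.91 ± 0.418 FPKM) closed the order and did not overlap their neighbors. The same 3 genes headed and the same 3 closed the order in Shh-Stk11 lungs. In between it ran Fbn2, Fbln5, Fbn1 and Emilin1 there, with only Emilin1 apart from its neighbors.

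Mfap4 and Eln together made up 87.2% of the summed FPKM of the 10 genes in both Control libraries, and 83.2% and 84.7% in the Shh-Stk11 libraries. The sum itself was 3054 and 2715 FPKM in Control lungs, against 2193 and 2166 FPKM in the Shh-Stk11 libraries. As a share of all FPKM it was 0.527% and 0.432% in Control, and 0.426% and 0.381% in Shh-Stk11 lungs. On either scale the values of Shh-Stk11 were below those of Control, although on the second Control 2 and Shh-Stk11 1 were nearly level. An exact permutation test of 2 against 2 libraries, two-sided, gave p = 0.33 for both, the smallest that this design allows.

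Elastin, the core of the fiber, had the largest log2 fold change of the 10 genes in size, although Fbn2, Mfap5 or Fbln1 exceeded it in some alternatives (with the same FPKM sum Eln was at -0.42, Fbn2 at 0.55 and Mfap5 at 0.55). Eln was at 930 and 797 FPKM in Control 1 and 2 and at 582 and 573 FPKM in Shh-Stk11 1 and 2. The Shh-Stk11 replicates were nearly equal, and the lower Control library stood well above both. The mean was 33.1% lower, with a log2 fold change of -0.58 (SE 0.18, 95% interval -1.01 to -0.15, limma adjusted p 0.184), 2.57 times the larger of the replicate differences. Of all genes tested, 10.9% had a larger absolute log2 fold change. In the fits with all 4 libraries it stayed between -0.58 and -0.42, and its adjusted p did not go below 0.141 in any alternative.

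The fibrillins form the microfibrils on which elastin is deposited, Fbn2 mainly before birth and Fbn1 throughout life. Fbn1 was at 41.5 and 33.1 FPKM in Control and at 41.6 and 35.2 FPKM in Shh-Stk11 lungs. Fbn2 was at 40.7 and 32.4 FPKM in Control and at 57.1 and 39.8 FPKM in Shh-Stk11 lungs. For both genes the groups overlapped, and for Fbn2 the value of Shh-Stk11 1 stood apart from the other 3. The log2 fold change was 0.05 for Fbn1 (SE 0.16, 95% interval -0.34 to 0.43, limma adjusted p 0.922). It was 0.39 for Fbn2 (SE 0.20, 95% interval -0.10 to 0.88, limma adjusted p 0.441). Without Shh-Stk11 1 the log2 fold change of Fbn2 was 0.13, and without Shh-Stk11 2 it was 0.65.

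Both fibrillin transcripts are very long, with 11971 and 11041 bases in the annotation, and differences between these libraries followed transcript length. In 10 groups of tested genes ordered by length, the median log2 fold change went from -0.19 in the shortest to 0.19 in the longest group, which holds both fibrillins. Replicates of one genotype differed along length as well, with Control 2 minus Control 1 going from 0.21 to -0.20. Differences between the genotypes followed GC content too. In 10 groups ordered by GC content, the median log2 fold change went from 0.20 in the lowest to -0.16 in the highest group. Eln, Loxl1 and Emilin1, with 58.8%, 61.0% and 61.1% GC, fall in the highest group. After the trend of each library with length and GC content was removed, Fbn1 turned to -0.26 (limma adjusted p 0.323) and Fbn2 went to 0.12 (limma adjusted p 0.665). The ratio of the fibrillins to each other compares transcripts of like length within a library. Fbn2 over Fbn1 was 0.980 and 0.981 in Control, and 1.37 and 1.13 in Shh-Stk11 lungs, higher in both Shh-Stk11 libraries (exact permutation test, two-sided, p = 0.33, the smallest possible).

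**Figure D2:**
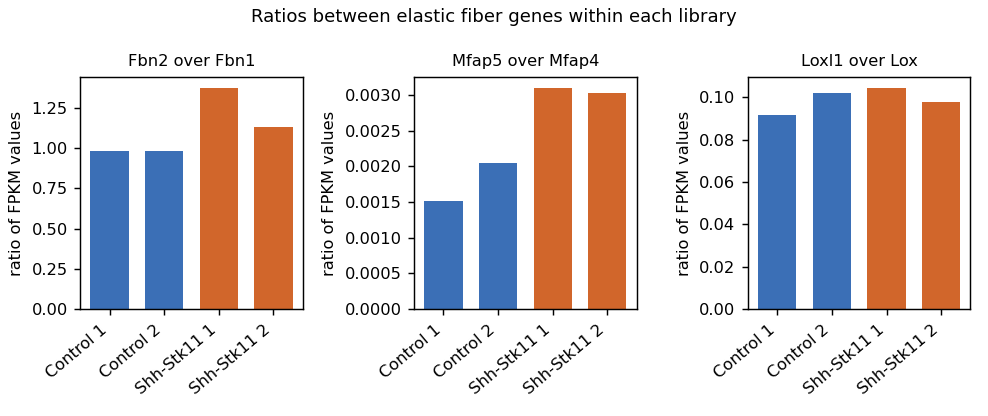
Ratio of FPKM values between paired elastic fiber genes in each library (Control in blue, Shh-Stk11 in orange, axes from 0). Fbn2 over Fbn1 is 0.98 in both Controls and at least 1.13 in Shh-Stk11 lungs, Mfap5 over Mfap4 is higher in both Shh-Stk11 libraries, and Loxl1 over Lox overlaps between the groups.

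The fibulins are small calcium-binding glycoproteins that bring elastin and microfibrils together. Fbln5 binds elastin and lysyl oxidase-like enzymes, while Fbln1 is found within elastic fibers and basement membranes. Fbln1 had the smallest p-value of the 10 genes, although that of Eln was smaller in some alternatives, such as with the replicate number as a block. Sequences upstream of the most upstream RefSeq start of each fibulin gene (GRCm38.p6) are shown, with matches to GGGCGG on either strand in capitals. Whether these bases regulate either gene in lung was not tested.
Fbln1, chr15:85205699-85205948, plus strand: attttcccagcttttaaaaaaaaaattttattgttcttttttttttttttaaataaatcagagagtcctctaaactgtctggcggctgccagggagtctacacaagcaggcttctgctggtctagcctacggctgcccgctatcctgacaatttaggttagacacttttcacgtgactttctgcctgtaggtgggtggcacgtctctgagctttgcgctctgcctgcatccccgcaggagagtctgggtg
Fbln5, chr12:101819120-101819369, minus strand: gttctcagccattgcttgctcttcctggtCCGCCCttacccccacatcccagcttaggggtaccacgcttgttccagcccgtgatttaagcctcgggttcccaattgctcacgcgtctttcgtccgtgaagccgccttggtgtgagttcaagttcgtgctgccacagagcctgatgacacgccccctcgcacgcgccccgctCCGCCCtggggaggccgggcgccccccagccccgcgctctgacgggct

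Each window holds the 250 bases before the start. The Fbln1 window had a GC content of 46.4% and held no GGGCGG, and the Fbln5 window had 65.2% and held 2. RefSeq gives each gene a second, more downstream start, and there the order was the opposite, with 62.4% and 1 match for Fbln1 and 49.6% and 0 matches for Fbln5. Over 32851 windows of this length in the same set, 32.7% held GGGCGG and 12.4% held TATAAA, which neither of these windows held. The CArG box, a motif of smooth muscle genes, was in 1.47% of all windows and in neither of these. The RNA values do not bear on the use of these letters.

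Fbln1 was at 26.9 and 29.7 FPKM in Control and at 20.6 and 19.9 FPKM in Shh-Stk11 lungs. The groups were well apart, and the mean was 28.2% lower in Shh-Stk11 lungs. The log2 fold change was -0.48 (SE 0.12, 95% interval -0.77 to -0.18, limma adjusted p 0.116), 3.35 times the larger replicate difference. It lay between -0.55 and -0.32 in every alternative, with an adjusted p of at least 0.101. Fbln5 was at 37.2 and 31.0 FPKM in Control and at 35.9 and 42.2 FPKM in Shh-Stk11 lungs. Its groups overlapped, and its log2 fold change of 0.20 (SE 0.15, 95% interval -0.16 to 0.56, limma adjusted p 0.594) was within the difference between the replicates. Leaving out single libraries moved it between 0.065 (without Control 2) and 0.33 (without Control 1), with 0.080 without Shh-Stk11 2 and 0.31 without Shh-Stk11 1.

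**Figure D3:**
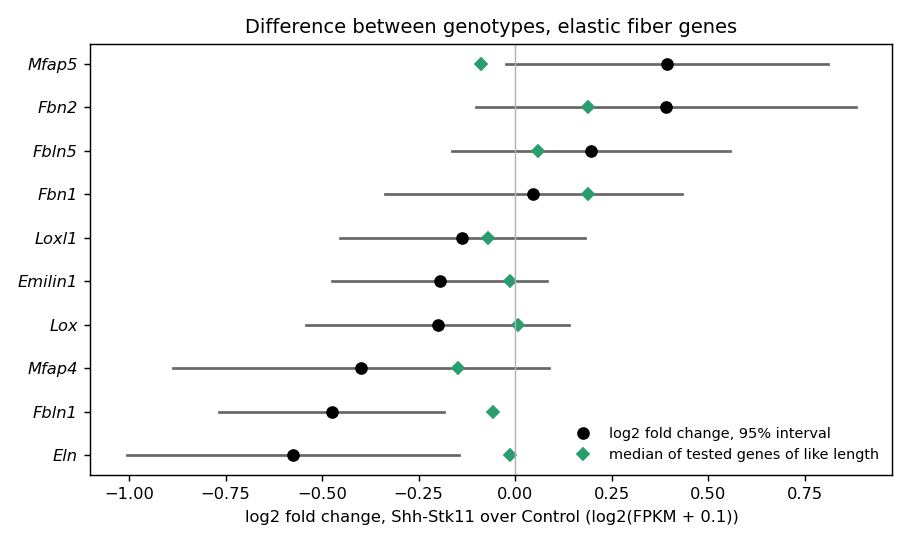
Log2 fold change of each elastic fiber gene (Shh-Stk11 over Control, on the log2(FPKM + 0.1) scale) with its 95% interval from limma (black), and the median of the tested genes of like transcript length (green). Genes of like GC content are not drawn. The intervals of Eln and Fbln1 lie below 0 before adjustment for the number of genes tested, and those of the other 8 genes include 0.

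Mfap4 and Mfap5 encode unrelated proteins that both associate with microfibrils. Mfap4 was at 1733 and 1571 FPKM in Control and at 1243 and 1262 FPKM in Shh-Stk11 lungs. It was lower in both of the latter, with a mean 24.2% lower, with a log2 fold change of -0.40 (SE 0.20, 95% interval -0.89 to 0.09, limma adjusted p 0.425). After quantile normalization it was -0.16, with the same FPKM sum -0.24 and after removal of the trend with length and GC -0.25. Mfap5, the least abundant of the 10, was at 2.62 and 3.21 FPKM in Control and at 3.85 and 3.82 FPKM in Shh-Stk11 lungs. It was higher in both Shh-Stk11 libraries, with a log2 fold change of 0.39 (SE 0.17, 95% interval -0.02 to 0.81, limma adjusted p 0.36) that was 0.25 without Control 1. About 228 reads stood behind its lowest value, for which counting alone gives an error of 6.62%. For the other 9 genes at least 1454 reads did.

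Mfap5 over Mfap4 was 0.00151 and 0.00204 in Control, and 0.0031 and 0.00303 in Shh-Stk11 lungs, higher in both Shh-Stk11 libraries (exact permutation test, two-sided, p = 0.33, the smallest possible). Mfap4 has a transcript of 1770 bases and Mfap5 one of 2491 bases in the annotation. The median log2 fold changes of tested genes in their length groups were -0.15 and -0.09.

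Lysyl oxidases oxidize the lysines through which elastin and collagen molecules are joined. Lox was at 185 and 163 FPKM in Control and at 159 and 144 FPKM in Shh-Stk11 lungs. Its groups did not overlap, although Control 2 and Shh-Stk11 1 were close, and its log2 fold change of -0.20 (SE 0.14, 95% interval -0.54 to 0.14, limma adjusted p 0.565) was 1.13 times the larger replicate difference. Loxl1, which is targeted to elastic fibers by Fbln5, was at 16.9 and 16.7 FPKM in Control and at 16.5 and 14.1 FPKM in Shh-Stk11 lungs. Its log2 fold change was -0.14 (SE 0.13, limma adjusted p 0.68), less than the difference between the Shh-Stk11 replicates. It turned to 0.021 when all libraries were set to the same FPKM sum and to 0.0030 after removal of the trend with length and GC. With single Shh-Stk11 libraries left out it lay between -0.25 (without replicate 1) and -0.024 (without replicate 2). With the same FPKM sum Lox was at -0.043, after quantile normalization at -0.092, and without Control 1 and without Shh-Stk11 2 at -0.11 and -0.13. It was larger in size after removal of the trend with length and GC (-0.30, limma adjusted p 0.274) and without Control 2 (-0.29). Loxl1 over Lox was 0.0916 and 0.102 in Control, and 0.104 and 0.098 in Shh-Stk11 lungs, with overlapping groups.

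Emilin1 encodes a glycoprotein at the interface of elastin and microfibrils that holds back TGF-beta processing. It was at 39.1 and 37.5 FPKM in Control and at 34.1 and 32.7 FPKM in Shh-Stk11 lungs. Replicates were close in both genotypes, and the groups did not overlap. The log2 fold change of -0.20 (SE 0.12, 95% interval -0.47 to 0.08, limma adjusted p 0.495) was 3.14 times the replicate difference. It was -0.038 with the same FPKM sum and -0.070 after removal of the trend with length and GC.

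Other genes of elastic fiber assembly were taken from a list of 32, of which 30 were tested. None passed the threshold, with 11 above and 19 below 0 and a median log2 fold change of -0.08. With all libraries set to the same FPKM sum the split was 24 above and 6 below 0, and the median of the list was 0.079. Unadjusted p-values under 0.05 were found for 1 gene in each direction, where 7.18% of all genes had them lower and 8.04% higher. Mfap2, which encodes another microfibril-associated glycoprotein, was at 124 and 134 FPKM in Control and at 98.3 and 107 FPKM in Shh-Stk11 lungs (-0.33 on the log2 scale, SE 0.13, limma adjusted p 0.293, between -0.39 and -0.12 over the alternatives). Vcan, which encodes the proteoglycan versican, was at 11.1 and 13.3 FPKM in Control and at 16.9 and 15.3 FPKM in Shh-Stk11 lungs (0.40 on the log2 scale, SE 0.14, limma adjusted p 0.252). After the trend with length and GC was removed it turned to -0.15. The largest fitted difference was that of Emilin3, at 1.12 and 1.20 FPKM in Control and at 0.872 and 0.702 FPKM in Shh-Stk11 lungs (-0.52 on the log2 scale, limma adjusted p 0.423). Emilin3 lay between -0.65 and -0.28 over the alternatives and was not the largest in each, as Emilin2 reached 0.75.

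Groups overlapped in 18 of the 30 genes tested, among them the next 5, and did not overlap in 12, beside 46.8% not overlapping over all genes. Efemp2, the fibulin-4 gene needed for Lox to meet elastin, had a log2 fold change of -0.12. Ltbp4, which cooperates with Fbln5, was at -0.06 and Ltbp2 at -0.15. The direction of these genes and of Loxl2, at -0.08, turned in some alternatives, over which Efemp2 reached 0.041, Ltbp4 0.11, Ltbp2 0.0036 and Loxl2 0.082. Emilin2 was at 0.36, with its Shh-Stk11 libraries at 3.25 and 5.65 FPKM. Without the higher one, Shh-Stk11 2, Emilin2 was at -0.029, and its highest value over the alternatives was 0.75.

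Of 21 genes of elastic fiber turnover and cell contact, 17 were tested and none passed the threshold. Their median log2 fold change was 0.04, and it was 0.20 with the same FPKM sum, -0.0035 after removal of the trend with length and GC, -0.12 with a mean of at least 5 FPKM, -0.042 without Control 2, -0.0069 without Shh-Stk11 1 and -0.094 without Shh-Stk11 2. Cela1, an elastase gene expressed in lung, had the largest difference of all these genes, from 13.6 and 8.10 FPKM in Control to 18.4 and 28.4 FPKM in Shh-Stk11 lungs (1.11 on the log2 scale, SE 0.29, limma adjusted p 0.124). The replicates of each genotype differed widely, and both Shh-Stk11 libraries were above both Controls. Cela1 lay between 0.74 and 1.49 over the alternatives. It passed the threshold in 1 of 17, the fit with the replicate numbers crossed. Itgav, an integrin subunit that binds elastic fiber proteins, was at 0.39 and Timp3, an inhibitor of metalloproteinases, at -0.38 (limma adjusted p 0.388 and 0.595). Timp3 was at 286 and 165 FPKM in Control and at 140 and 199 FPKM in Shh-Stk11 lungs. Its log2 fold change turned to 0.016 without Control 1, and its lowest value over the alternatives was -0.78. Itgav lay between 0.13 and 0.65 over the alternatives. Mmp2 was at -0.23 (-0.26 to -0.070 over the alternatives) and Itga8, a marker of alveolar myofibroblasts, at 0.04 (-0.13 to 0.20). Mmp12, the macrophage elastase gene, was under the filter at 0.0694 and 0.093 FPKM in Control and at 0.0952 and 0.194 FPKM in Shh-Stk11 lungs.

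Signals known to act on elastin-producing cells were compared in 16 genes, with a median log2 fold change of 0.09. It was 0.25 with the same FPKM sum, -0.0097 after removal of the trend with length and GC, 0.055 without Control 2 and 0.056 without Shh-Stk11 1. None passed the threshold, and 4 genes in each direction had an unadjusted p under 0.05, where 7.18% of all genes did so lower and 8.04% higher. Pdgfa, the epithelial ligand on which elastin-producing myofibroblasts depend, was at 35.7 and 36.4 FPKM in Control and at 27.7 and 27.4 FPKM in Shh-Stk11 lungs (-0.39 on the log2 scale, SE 0.11, limma adjusted p 0.166). Its receptor gene Pdgfra was at 42.5 and 38.2 FPKM in Control and at 30.3 and 31.7 FPKM in Shh-Stk11 lungs (-0.38 on the log2 scale, SE 0.12, limma adjusted p 0.201). For both genes of this pair the groups were well apart. Pdgfra is also counted among the mesenchymal markers below, and Hhip, described next, among the smooth muscle and myofibroblast markers.

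Fgf18, a growth factor gene of the mesenchyme, was likewise lower, at a log2 fold change of -0.40 (SE 0.13, limma adjusted p 0.187). The largest differences upward were those of Igf1, from 20.3 and 17.1 to 31.1 and 27.3 FPKM (0.64 on the log2 scale, SE 0.14, limma adjusted p 0.0832), and of Hhip, a hedgehog antagonist, from 16.7 and 13.3 to 23.0 and 23.2 FPKM (0.63 on the log2 scale, SE 0.15, limma adjusted p 0.0953). Tgfbr1, a TGF-beta receptor gene, and Tgfb3, a ligand gene, had log2 fold changes of 0.41 and 0.31 (limma adjusted p 0.182 and 0.302). The ligand genes Tgfb2 and Tgfb1 were at -0.36 and -0.26 (limma adjusted p 0.295 and 0.436), with groups that did not overlap. After the trend with length and GC was removed, Igf1 was at 0.18, Hhip at 0.12 and Tgfbr1 at 0.14. Over the alternatives Pdgfa lay between -0.40 and -0.23, Pdgfra between -0.49 and -0.22, and Fgf18 between -0.48 and -0.20. Tgfb2 lay between -0.48 and -0.20, Tgfb1 between -0.38 and -0.10, and Tgfb3 between 0.25 and 0.47. None of these 9 genes passed the threshold in any alternative.

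**Figure D4:**
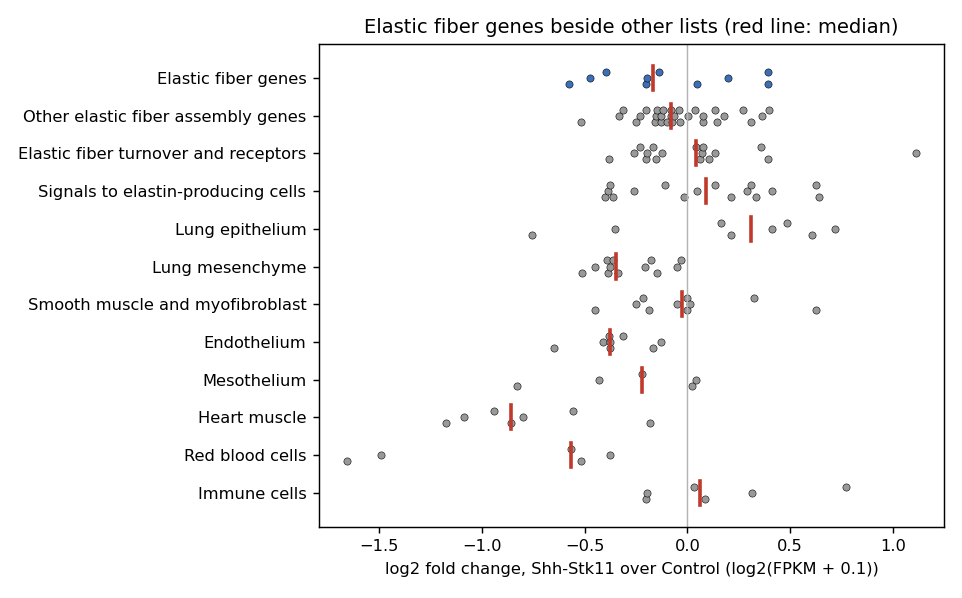
Log2 fold change (Shh-Stk11 over Control, log2(FPKM + 0.1) scale) of each tested gene of the elastic fiber genes (blue), of 3 lists of related genes and of 8 cell type marker lists (grey), with a red line at each median. The elastic fiber genes spread from -0.58 to 0.39, and their median of -0.17 lies between those of the mesenchymal (-0.35) and the smooth muscle and myofibroblast (-0.03) markers. This order depended on single libraries. Without Shh-Stk11 2 the elastic fiber genes were at -0.079 and the smooth muscle and myofibroblast markers at -0.134. Without Control 1 these medians were -0.119 and -0.127.

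Markers of the cells of the organ were set beside the elastic fiber genes. The epithelial markers Nkx2-1 and Sftpc and the mesenchymal markers Tbx4 and Tcf21 were expressed in every library. All 12 mesenchymal markers had a log2 fold change below 0, with a median of -0.35 and none past the threshold, and at a sum of 2235 to 2440 FPKM in Control against 1785 to 1937 in Shh-Stk11 lungs. With all libraries set to the same FPKM sum, 9 of the 12 were below 0 and the median was -0.19, and without Shh-Stk11 2 it was -0.21. The 10 smooth muscle and myofibroblast markers, with sums of 506 to 565 and 485 to 566 FPKM, had a median of -0.03 that turned to 0.13 under the same scaling and lay between -0.13 and 0.015 with single libraries left out (-0.13 without Control 1 and without Shh-Stk11 2). The 8 endothelial markers, with sums of 661 to 769 and 530 to 566 FPKM, were all below 0 with a median of -0.38 (7 of 8 and -0.22 with the same FPKM sum), and 6 of the 8 epithelial markers were above 0 with a median of 0.31 (0.47 with the same FPKM sum). The sum of the epithelial markers ran the other way, at 18706 and 16899 FPKM in Control against 9543 and 13719 in Shh-Stk11 lungs. Its most abundant gene, Sftpc, was at -0.76 (limma adjusted p 0.447, between -1.05 and -0.19 over the alternatives). Sox2 was at -0.35 (between -0.46 and -0.20 over the alternatives). Medians were -0.22 for mesothelial (-0.084 with the same FPKM sum), 0.06 for immune (0.22 with the same FPKM sum) and -0.86 for heart muscle markers. They were -0.57 for red blood cell, -0.56 for skeletal muscle (2 of 6 tested) and 0.05 for cartilage markers (4 of 8 tested). With a mean of at least 5 FPKM the mesothelial median was -0.43 and the red blood cell median -1.03. Single libraries moved some of these: heart muscle was at -1.55 without Shh-Stk11 1 and -0.12 without Shh-Stk11 2, skeletal muscle at -1.01 without Control 1 and -0.10 without Control 2, cartilage at -0.13 without Shh-Stk11 1 and 0.59 without Control 2, and immune at 0.29 without Shh-Stk11 1 and -0.077 without Shh-Stk11 2. Hba-x, an embryonic globin gene, was the only marker past the threshold, and was lower in Shh-Stk11 lungs (limma adjusted p 0.0158), a call kept in 12 of 17 alternatives. In some alternatives other markers passed as well, such as Hbb-y in 5 and Msln in 2 of 17. The part of these markers in the values of the elastic fiber genes was not tested.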

How the data were processed

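Lung RNA had been sequenced as single-end reads. The authors deposited 1 table of FPKM values per gene, with a column for each of the 4 libraries. The submitters' processing notes name TopHat2 2.0.13, Cufflinks 2.2.1 and the builds GRCm38 and mm9. Which build served this table, and the annotation, are not given in the sources used here. The methods of the study speak of independent biological replicates. Depth was estimated from the steps between values of 1721 lowly expressed genes, 78.9% of which were at whole multiples of a step (within 0.5%).

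A gene was tested if its mean FPKM reached 0.5. The test was that of limma 3.58.1 (R 4.3.3), applied to log2(FPKM + 0.1) with genotype as the only term, eBayes with a trend, two-sided, and Benjamini-Hochberg adjustment over all 13770 genes (threshold 0.05). The script was tested on simulated data. All 10 elastic fiber genes passed the filter. Transcript lengths came from GENCODE M21, and upstream windows from a table of RefSeq starts, in which 4 of the 10 genes were matched.

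The members and gene lists were chosen with earlier results of these data known. All members are named, and of the 3 lists of related genes, those past the threshold, the 3 with the largest absolute change and 12 genes fixed by role. Of the marker lists, genes past the threshold and 1 or 2 defining genes are named. Fgf18, Tgfb1, Tgfb2, Sox2, Hbb-y, Msln, Xist and Ddx3y were chosen after their values were seen. Ratios of Eln to Lox and of Fbln5 to Fbln1 were also computed, and were left out after their values were seen. In neither ratio did the groups overlap. Alternatives were other pseudocounts, filters and scalings, eBayes without the trend, subtraction of a fitted trend with length and GC, the replicate number as a block, and leaving out each library.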

Additional observations from a re-analysis of the deposited data

How the results depend on the processing

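No elastic fiber gene passed the threshold in any of 17 alternatives (smallest adjusted p in limma 0.101, for Fbln1), and none of the other assembly genes did. Of the 10 genes, 8 kept their direction throughout. Fbn1 turned to -0.26 after removing the trend with length and GC (also with the replicate block) and lay between -0.12 and 0.21 when libraries were left out, turning negative without Control 2 and without Shh-Stk11 1. Loxl1 turned to 0.021 with the same FPKM sum and to 0.0030 after removing the trend with length and GC (also with the replicate block). The median of the 10 genes was -0.17, -0.0084 with the same FPKM sum, and -0.24 to -0.079 with libraries left out (-0.079 without Shh-Stk11 2). The median of the other assembly genes was -0.08, -0.021 with quantile normalization, 0.079 with the same FPKM sum, -0.014 after removing the trend with length and GC (also with the replicate block), and -0.13 to -0.052 with libraries left out. In these the lone library of a genotype is assumed to vary like the other genotype's. The cause of these shifts was not tested.

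Over all genes, 135 were higher and 178 lower, against 20 and 41 without a filter, 82 and 86 with the same FPKM sum, 85 and 106 after removing the trend with length and GC, and 90 lower with a mean of at least 5 FPKM. With the replicate number as a block there were 6 higher and 7 lower, and 7 higher and 7 lower with the replicate block and after removing the trend with length and GC. Leaving out libraries gave 40 to 129 higher and 64 to 190 lower. Nothing in the labels ties a replicate number to a shared litter or batch, and same-numbered libraries deviated with a correlation of -0.114 over 13770 genes. The crossed pairing, added after seeing the data, gave 360 higher and 315 lower. No block changed a call of an elastic fiber gene. Mfap5 was not tested with a mean of at least 5 FPKM. An exact test of 2 against 2 libraries cannot go below p = 0.33, and for Mfap5 about 228 reads stood behind the lowest value.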
